A study of Mus musculus with 55 samples.

Results

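Mouse oocytes at the germinal vesicle (GV) stage, labelled cPDS for 12 h, were compared with the GV oocytes labelled GV_C. The comparison took all 3 GV_cPDS_12h libraries and all 3 GV_C libraries of 1 table of gene counts, that is 6 of the 26 RNA count libraries among the 55 samples of the series. Every gene of that table entered, 33924 features, and 16115 of them passed the filter on low counts and were tested. The labels give oocytes of the ovary, polyadenylated RNA and a 12 h time for the cPDS libraries only. They give no genotype, no dose of cPDS and no culture time for GV_C, so that cPDS and 12 h of culture cannot be told apart. The extraction text attached to every sample speaks of growing oocytes from control mice and from mice that carry floxed Dhx36 alleles and a transgene abbreviated SKO. It does not say which mice gave the GV oocytes. The other groups used here, for 1 comparison near the end, were 3 growing oocyte libraries labelled control and 3 labelled Dhx36 sko.

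A GV oocyte is arrested in the prophase of the first meiotic division. Once fully grown, it has nearly stopped transcription and lives on messenger RNA (mRNA) that was made and stored during growth. The level of a transcript then depends largely on its storage, polyadenylation and decay. G-quadruplexes are stacked structures of guanine-rich RNA or DNA. cPDS, carboxypyridostatin, is a small molecule that binds and stabilises them with a preference for RNA, and DHX36 is a helicase that unwinds them.

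Total counts ran from 56604516 to 65444652 in the GV_C libraries and from 26509060 to 63878535 in the cPDS libraries. Log2 CPM (counts scaled to a common library total) correlated at 0.989 to 0.991 within GV_C, at 0.982 to 0.987 within cPDS and at 0.955 to 0.964 between the groups. Replicates differed beyond counting noise, with a chi-square per degree of freedom of 8.34 to 39.6 over the pairs of a group, so none was a copy of another. Oocyte markers took 3.38% to 3.58% of counts in GV_C and 3.53% to 3.87% with cPDS, and the groups overlapped. Granulosa and cumulus markers took 0.0334% to 0.0338% in GV_C and 0.0237% to 0.0247% with cPDS. Esr2 and Cyp19a1 held 82.4% to 89.2% of those counts, and without both genes the share was 0.00365% to 0.00392% in GV_C and 0.00361% to 0.00435% with cPDS, overlapping groups. Of 24 granulosa and cumulus markers, 15 were tested, and others, such as Foxl2 and Amh, were too low to test. Beside Esr2 and Cyp19a1, the most counted were Nr5a2 (5298 counts over the 6 libraries), Kitl (2731) and Gja1 (1374). Theca and stroma markers took 0.000715% to 0.000790% in GV_C and 0.000766% to 0.00106% with cPDS. Immune, endothelial and blood markers took 0.00705% to 0.00750% and 0.00256% to 0.00286%, most of it Pecam1, and without Pecam1 0.00162% to 0.00173% and 0.00126% to 0.00156%. An exact 2-sided permutation test gave p = 0.1 for the granulosa and the immune shares, the smallest that 3 libraries against 3 allow. The part of these shares in the results below was not tested. In such pooled RNA, fewer cells of a type and less RNA per cell cannot be told apart. Nothing says that replicates came from separate animals or cultures, so p-values measure the spread between these libraries, which may be technical. The sources used here name no spike-in, so levels are shares of a library and not amounts per oocyte. The RNA was polyadenylated, so a change in transcript number and a change in poly(A) tail cannot be told apart. Rises and falls below are of counts in such libraries.

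After 12 h with cPDS, a subset of oocyte transcripts fell steeply while many others rose by a small amount. With edgeR's quasi-likelihood test and a Benjamini-Hochberg adjusted p under 0.05, 8191 of the 16115 tested genes were called (50.8%). Of these, 3778 were higher (23.4%) and 4413 lower (27.4%), counts that differ little. The sizes differed more. At least 2-fold changes were called in 2305 genes (14.3%), 258 higher and 2047 lower, and at least 4-fold changes in 35 higher and 615 lower. A 10-fold change was reached by 7 genes upward and 110 downward. The log2 fold change had a median of 0.01 over all tested genes, a 5th percentile of -1.80 and a 95th percentile of 0.83. The 3 libraries of each group did not overlap in 9355 genes (58.1%). As a description of size, genes called at least 2-fold lower held 11.9% to 12.4% of the counts of tested genes in GV_C and 3.49% to 4.00% with cPDS. Genes called at least 2-fold higher held 0.181% to 0.188% and 0.374% to 0.433%.

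**Figure D1:**
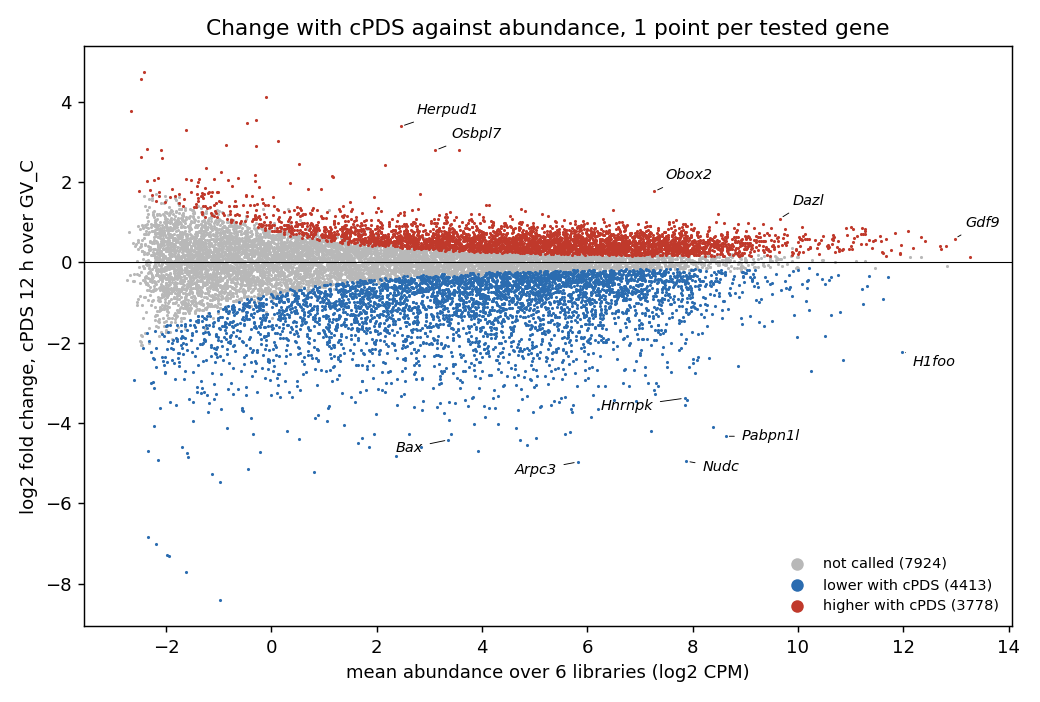
Log2 fold change with cPDS against mean abundance in log2 CPM, 1 point per tested gene, with genes called higher in red (3778), called lower in blue (4413) and not called in grey (7924). Blue points reach much farther from 0 than red points at the same abundance, and H1foo and Pabpn1l mark abundant transcripts on the lower side.

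The largest decreases among abundant genes fell to a small part of their GV_C level. Nudc (mm9, chromosome 4, 133088457 to 133101911, minus strand), which encodes a dynein-associated protein of nuclear movement and mitosis, read 411, 478 and 480 CPM in the GV_C libraries. It read 18, 16.3 and 10.6 CPM in the cPDS libraries, so that every cPDS library lay far below every GV_C library. Its log2 fold change was -4.95 ± 0.15 (SE; adjusted p = 2.61e-12 by edgeR), a 30.9-fold difference. Arpc3 (chromosome 5, 122841887 to 122856188, plus strand), a subunit of the Arp2/3 complex that nucleates branched actin, read 63.7, 166 and 96.5 CPM in GV_C and 3.73, 3.40 and 3.29 CPM with cPDS. The GV_C libraries spread widely for this gene, but the groups stayed far apart (log2 fold change -4.97, SE 0.28).

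Pabpn1l (chromosome 8, 125143371 to 125146639, minus strand) encodes an oocyte and early embryo poly(A)-binding protein. It read 708, 722 and 830 CPM in GV_C and 44.6, 38.8 and 29.4 CPM with cPDS, a change of -4.33 ± 0.13 (log2 fold change ± SE, here and below). Eif5a, a translation factor that carries hypusine, read 282, 270 and 291 CPM against 17.6, 16.6 and 12.3 CPM. The beta-tubulin gene Tubb2c read 694, 541 and 666 CPM against 38.6, 39.1 and 33.2 CPM. Hnrnpa1, an RNA-binding protein of splicing, read 125, 123 and 124 CPM against 9.37, 9.67 and 6.96 CPM. Each of these had groups far apart, with changes of -4.19 ± 0.12 for Eif5a, -4.10 ± 0.10 for Tubb2c and -3.86 ± 0.11 for Hnrnpa1. All 3 belong to families with near-identical copies or processed pseudogenes, and how reads that fit several genes were counted is not given, so their values are uncertain.

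The other 6 of the 12 largest decreases among abundant genes (log2 CPM averaging 4 or more) changed between -4.22 and -3.55. They were H2-Ke2, a prefoldin subunit gene, Cyb561d2, a cytochrome b561 family gene, and Mlf2, a myeloid leukemia factor family gene. Cyth2, which encodes an activator of ARF GTPases, Arl3, an ARF-like GTPase gene of ciliary traffic, and Zfand2b, a zinc finger gene tied to the proteasome, completed the set. Their GV_C libraries lay between 57.3 and 142 CPM and their cPDS libraries between 4.41 and 12.8 CPM.

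Increases of abundant genes were smaller, and 12 of them reached 1.01 to 1.76 on the log2 scale. Dazl (chromosome 17, 50418719 to 50432924, minus strand), a germ cell RNA-binding protein that activates translation of stored mRNA, read 525, 517 and 509 CPM in GV_C and 1015, 1100 and 1181 CPM with cPDS. Its groups did not overlap, and it rose by 1.09 ± 0.06 (edgeR adjusted p = 1.77e-09). Cd164, a sialomucin gene, read 226, 207 and 215 CPM against 449, 522 and 521 CPM and rose by 1.20 ± 0.07. Srsf2, a splicing factor of the SR family, read 21.7, 19.8 and 23.3 CPM against 52.2, 50.8 and 45.3 CPM and rose by 1.19 ± 0.09. For each of these 3 genes every cPDS library lay well above every GV_C library.

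Obox2, an oocyte homeobox gene, had the largest increase of the set (1.76 ± 0.25) with the widest spread. It read 84.0, 53.3 and 74.3 CPM in GV_C and 156, 177 and 383 CPM with cPDS, where cPDS replicate 3 stood apart. It lies in a multicopy cluster and is uncertain. Tbx19, a T-box factor gene best known from the pituitary, rose by 1.34 ± 0.09, Clvs1, a gene of clathrin-coated vesicles, by 1.28 ± 0.09 and Phyhipl by 1.16 ± 0.09. Nsmce4a, a subunit gene of the SMC5/6 complex, rose by 1.08 ± 0.16, Sap130, of the SIN3 corepressor, by 1.05 ± 0.08 and Tox3, a high mobility group box gene, by 1.03 ± 0.09. Med14, the Mediator backbone gene, rose by 1.02 ± 0.09 and Esrrg, an orphan nuclear receptor gene, by 1.01 ± 0.10.

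**Figure D2:**
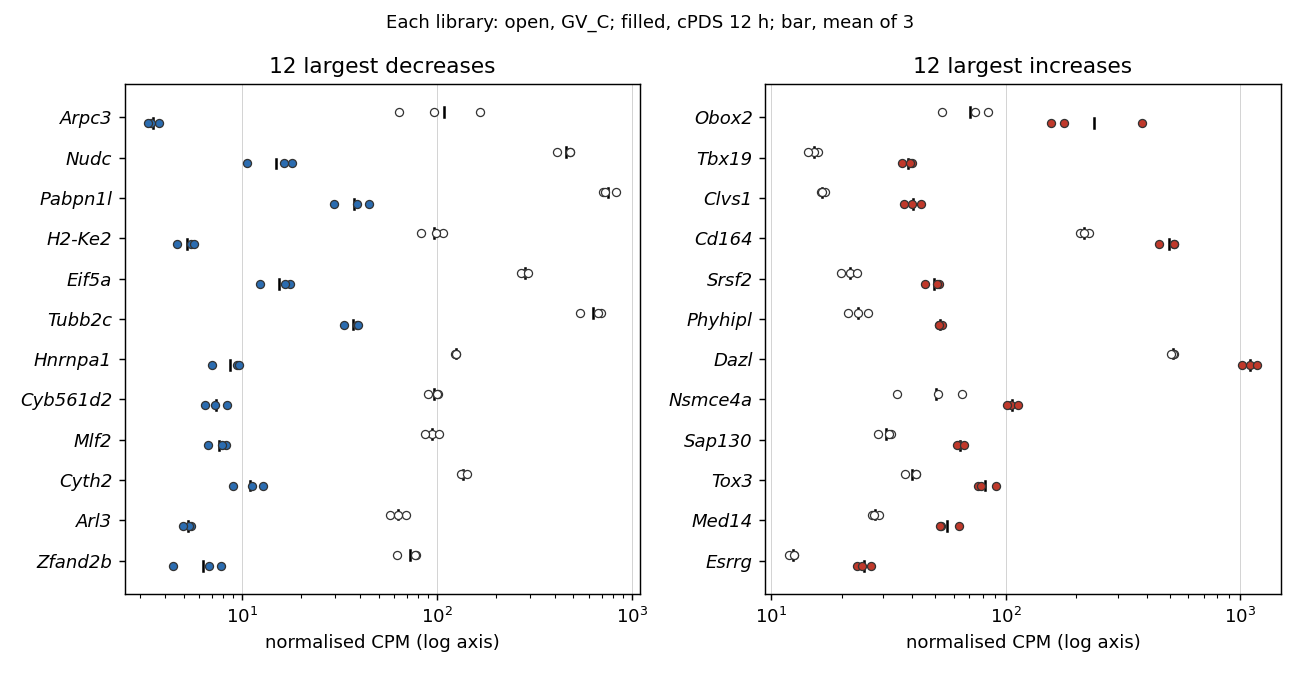
Normalised CPM on a log axis of the 12 largest decreases and the 12 largest increases among called abundant genes (log2 CPM averaging 4 or more, no overlap), 1 point per library, open for GV_C and filled for cPDS, with the mean of 3 as a bar. The decreases leave a wide gap between the groups, whereas the increases, 1.01 to 1.76 on the log2 scale, leave a narrow one, and Obox2 shows cPDS replicate 3 apart at 383 CPM.

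The start sites of these genes were searched for letters that can form a G-quadruplex, since cPDS binds that structure. The motif was 4 runs of GGG or longer with loops of 1 to 7 bases of any kind, searched on both strands of RefSeq promoter windows (build GRCm38.p6, which is not the build of the gene positions above) from 250 bases before to 50 bases after the start. Matches on a strand did not overlap each other. Of the 12 largest decreases, all 12 had a window, 3 held the motif on the coding strand and 2 on the template strand. Of the 12 largest increases, 10 had a window, 2 held it on the coding strand and 3 on the template strand. The matches below are shown to compare both directions, 3 of genes that fell and 1 of a gene that rose, each on the coding strand and read 5′ to 3′, with the runs of at least 3 G in capitals.
Nudc, fell, chr4:133546042-133546066, minus strand: GGGcaccgatGGGcGGGGaggcGGG
Eif5a, fell, chr11:69921069-69921094, minus strand: GGGGGtcGGGGaGGGGGGcagaaGGG
Zfand2b, fell, chr1:75168720-75168744, plus strand: GGGcGGGGGagaggaaGGGGcGGGG
Esrrg, rose, chr1:187608906-187608924, plus strand: GGGtGGGGGtGGGGGaGGG

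Across protein-coding genes, the motif was spread over all classes of change. A window was found for 10908 of 13484 tested protein-coding genes (80.9%), and a gene with several windows was counted as holding the motif where any window did. On the coding strand it was held by 16.6% of these genes, by 18.1% of those called lower, 19.2% of those at least 4-fold lower, 15.4% of those called higher, 11.8% of those at least 2-fold higher and 16.2% of those not called. On the template strand the shares were 15.1%, 14.8%, 15.2%, 14.9%, 10.4% and 15.4% in the same order. Of all 32851 windows of the reference, expressed or not, 10.5% held it on the coding and 9.35% on the template strand. Within 4 equal bins of window GC content, genes with and without the motif on either strand were called lower in 18.8% and 21.7% (lowest GC), 34.4% and 34.5%, 35.2% and 34.3%, and 30.0% and 31.1% (highest GC). A match is a run of letters and not a measured structure.

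Shorter genes held more of the steep decreases. With genes in 4 equal bins of gene span from shortest to longest, 5.05%, 5.72%, 3.11% and 1.42% of tested genes were called at least 4-fold lower, against 3.82% over all. In the same bins, 18.5%, 19.1%, 25.1% and 31.1% were called higher and 23.5%, 34.2%, 30.8% and 21.3% lower. In bins of summed exon length, the shares at least 4-fold lower were 4.24%, 5.68%, 3.67% and 1.66%. Bins of promoter GC content differed in the direction of change too, without a steady trend. Protein-coding genes in the lowest GC bin were higher in 29.2% and lower in 21.5%. Those in the next 2 bins were higher in 22.3% and 22.0% and lower in 34.5% and 34.6%. In the highest GC bin 25.5% were higher and 30.5% lower. Long noncoding RNA genes by RefSeq biotype were higher in 19.1% of 758 and lower in 11%, whereas protein-coding genes were higher in 24.6% and lower in 30.2%. Genes are not replicates and properties such as length, abundance and GC content go together, so these shares carry no test.

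**Figure D3:**
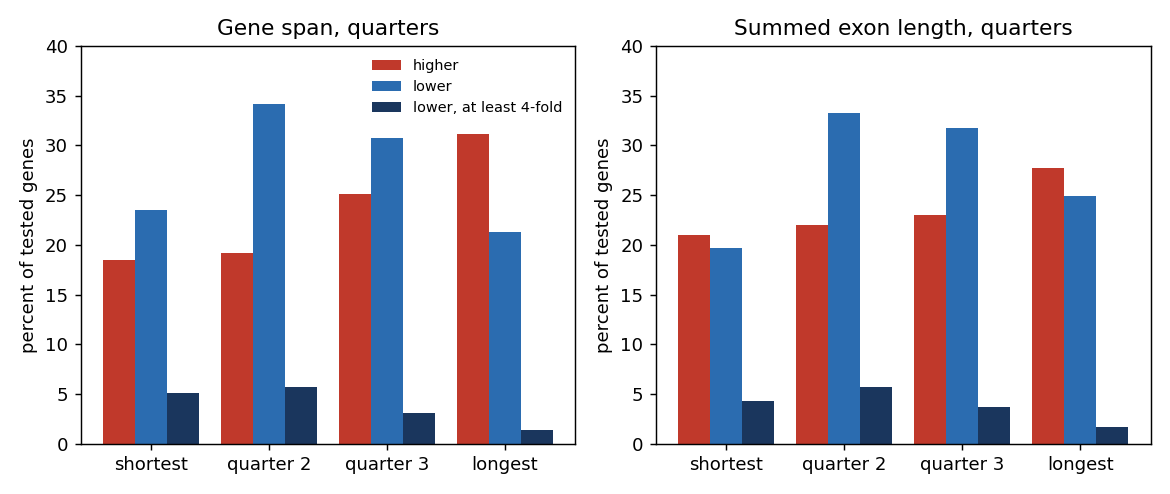
Percent of tested genes called higher (red), lower (blue) and at least 4-fold lower (dark blue) in 4 equal bins of gene span and of summed exon length, shortest to longest. The share at least 4-fold lower drops to 1.42% in the longest bin of span, where more genes were higher (31.1%) than lower (21.3%).

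Gene lists are given below by their members called, to be read against 23.4% higher and 27.4% lower over all tested genes. Genes that define the oocyte moved in both directions. The zona pellucida is the glycoprotein coat of the egg, to which sperm bind. Of 10 tested zona and sperm-binding genes, 5 were higher and 3 lower, with a median log2 fold change of 0.39. Zp3, the coat protein gene that sperm recognise, read 4236, 3807 and 4146 CPM in GV_C and 4855, 5456 and 5359 CPM with cPDS and rose by 0.36 ± 0.06. Zp2 rose by 0.56 ± 0.10 and the secreted protein gene Oosp1 by 0.56 ± 0.08, while Zp1 fell by 0.44 (SE 0.09). Astl (chromosome 2, 127164375 to 127183387, plus strand), the egg protease that cleaves the coat after fertilisation, stood apart. It read 571, 348 and 467 CPM in GV_C and 67.4, 74.9 and 62.8 CPM with cPDS, and fell by 2.76 (SE 0.14). Folr4, also called JUNO, which binds IZUMO1 on sperm, changed by -0.80 ± 0.07.

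Growth factors that the oocyte sends to its follicle, and the receptors it carries, had 7 higher and 3 lower of 18 (median 0.17). Gdf9, which drives cumulus cell function, read 7261, 5304 and 6751 CPM in GV_C and 8264, 10425 and 10367 CPM with cPDS, and rose by 0.59 ± 0.10 (edgeR adjusted p = 1.62e-04). It overtook Spin1 as the most abundant transcript in cPDS replicates 2 and 3. Its partner Bmp15 rose by 0.58 ± 0.07 and the receptor gene Kit, which binds the ligand made by granulosa cells, by 0.80 ± 0.07. Fgf8 fell by 0.44 (SE 0.09). Gja1, a gap junction gene of granulosa cells that is also a marker of those cells here, fell from 5.88 to 2.42 CPM (-1.30 ± 0.18).

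The Nlrp family, oocyte proteins with leucine-rich repeats, had 8 of 11 higher and 2 lower (median 0.55). All 5 tested Nlrp4 genes rose, within a narrow range of 0.54 to 0.59, among them Nlrp4f, from 1710 to 2580 CPM. Nlrp5 and Nlrp2 fell by 0.36 (SE 0.08) and 0.60 (SE 0.08). Nlrp4 genes are near copies of one another and their single values are uncertain. Among 28 oocyte transcription factors, 13 were higher and 4 lower (median 0.24). Obox1 read 1835, 1836 and 1795 CPM in GV_C and 3219, 3093 and 3118 CPM with cPDS, and Obox5 rose by 0.71 ± 0.05. Tcf3, a basic helix-loop-helix factor gene, fell by 2.23 (SE 0.16) and Pou5f1, the pluripotency factor gene also called Oct4, by 1.85 (SE 0.14).

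Maternal effect genes act in the embryo from products made by the mother, and several encode the subcortical maternal complex. Of 27 tested, 12 were higher and 9 lower (median 0.16). Zbed3 rose from 2770 to 4570 CPM (0.72 ± 0.06), Dppa3, which protects the maternal genome from demethylation, by 0.52 and Ooep by 0.31. Zfp57, a zinc finger factor that guards imprints, fell from 1582 ± 51.7 to 438 ± 78.7 CPM (SD, n = 3 each; -1.85 ± 0.10). Padi6, which is needed for the cytoplasmic lattices of the oocyte, read 2833, 2125 and 2541 CPM in GV_C and 990, 1121 and 1046 CPM with cPDS, and fell by 1.25 (SE 0.09). Of the 16 oocyte markers used to check the label, 9 were higher and 6 lower.

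H1foo (chromosome 6, 115894956 to 115900254, plus strand), the oocyte linker histone, lost more CPM than any other tested gene. It read 6537, 6639 and 6762 CPM in GV_C and 1500, 1443 and 1330 CPM with cPDS, and its groups were far apart. Its log2 fold change was -2.22 ± 0.06 (adjusted p = 6.54e-13 by edgeR). Histone variants and linker histones as a list had 5 higher and 8 lower of 20 (median -0.08), with H3f3a, a replacement H3.3 gene, at 0.56 ± 0.06 and H2afy2, a macroH2A gene, at -2.46 ± 0.23. Only 35 of 70 replication-dependent histone genes could be tested, 7 higher and 5 lower, in a polyadenylated library that these transcripts mostly escape.

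Chromatin regulators divided in the same manner. Writers, erasers and guards of DNA methylation had 6 higher and 7 lower of 18. Dnmt1, the maintenance methyltransferase, read 875, 1020 and 832 CPM in GV_C and 363, 310 and 302 CPM with cPDS (-1.48 ± 0.09), and Dnmt3l, a cofactor of de novo methylation, fell by 0.66 (SE 0.09). Tet1, a demethylating dioxygenase gene, rose by 0.66 ± 0.13 and Trim28, the corepressor that ZFP57 recruits, by 0.55. Histone lysine methylases and demethylases had 15 higher and 6 lower of 44 (median 0.07), led by Kdm6a, a demethylase of H3K27, at 0.74 ± 0.07.

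Storage of mRNA in the oocyte rests on RNA-binding proteins that keep transcripts silent. Of 26 tested storage particle genes, 7 were higher and 13 lower (median -0.16). Lsm14a, a particle component, read 196, 190 and 190 CPM in GV_C and 72.3, 64.3 and 67.0 CPM with cPDS (-1.50 ± 0.07). Zar1, which organises the storage compartment around mitochondria, fell from 548 to 210 CPM (-1.39 ± 0.06) and Ddx6, a helicase of these particles, from 15.1 to 8.45 CPM (-0.85 ± 0.13). Patl1, a decapping and storage factor gene, rose by 1.04 ± 0.12. Translational regulators had 9 higher and 9 lower of 31. All 4 tested Cpeb genes, whose products bind the cytoplasmic polyadenylation element, rose, with Cpeb1 from 520 to 704 CPM (0.44 ± 0.06). Beside Dazl, Nanos1 rose by 0.98 ± 0.10, while Fxr2, a relative of the fragile X protein, fell by 1.96 (SE 0.19).

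Genes that set the poly(A) tail moved in both directions. Poly(A)-binding proteins, polymerases and cleavage factors had 6 higher and 13 lower of 28 (median -0.26). Papd4, the cytoplasmic poly(A) polymerase also called GLD-2, read 35, 32.4 and 35.6 CPM in GV_C and 61.4, 70.1 and 72.8 CPM with cPDS, a rise of 0.99 ± 0.09. Pabpc4 fell by 0.85 and the nuclear polymerase gene Papola by 0.57, beside the steep fall of Pabpn1l. Deadenylation genes had 11 higher and 6 lower of 23 (median 0.24). Cnot8 and Cnot7, which encode alternative CAF1-type nucleases of the CCR4-NOT complex, fell by 1.18 (SE 0.08) and 0.52 (SE 0.06). Cnot6l and Cnot6, of its CCR4-type nucleases, rose by 0.42 and 0.61, the scaffold gene Cnot1 rose by 0.65 ± 0.08, and Btg4, the adaptor of maternal mRNA clearance, rose from 3607 to 4249 CPM (0.24 ± 0.05).

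Among 34 genes of the exosome, decapping and nonsense-mediated decay, 9 were higher and 16 lower (median -0.28). Dcps, the scavenger enzyme that removes the cap after decay, read 17.9, 20.2 and 18.3 CPM in GV_C and 1.3, 1.3 and 1.1 CPM with cPDS, and fell by 3.92 (SE 0.14). Exosc2, an exosome cap subunit gene, fell by 2.12 (SE 0.15), whereas the 5′ to 3′ nuclease genes Xrn1 and Xrn2 rose by 0.37 and 0.42 and the decapping enzyme gene Dcp2 by 0.33.

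Genes of proteins that bind or unwind G-quadruplexes were lower more often than higher. Of 45 tested, 9 were higher (20%) and 30 lower (66.7%), against 23.4% and 27.4% over all genes, and their median log2 fold change was -0.55 against 0.01. Ncl, nucleolin, an abundant nucleolar protein that binds these structures, read 467, 611 and 512 CPM in GV_C and 124, 89.7 and 90.9 CPM with cPDS, and its groups were far apart (-2.38 ± 0.12). Cirbp, a cold-inducible RNA-binding protein gene, fell by 2.46 (SE 0.10), Ddx17 by 1.87 (SE 0.17) and Ddx3x by 1.30. Dhx36 itself went the other way. It read 23, 20.6 and 20.9 CPM in GV_C and 31.3, 36.9 and 38.3 CPM with cPDS, and rose by 0.73 ± 0.10 (edgeR adjusted p = 1.82e-05). Grsf1, which binds G-rich RNA, rose by 0.58 ± 0.09 and Dhx9, a helicase of RNA and hybrids, by 0.40 ± 0.13. Several members, such as Hnrnpa1 and Hnrnph1, also belong to the splicing list, so these lists are not independent.

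Splicing proteins had 7 higher (14.6%) and 29 lower (60.4%) of 48, against 23.4% and 27.4% over all genes (median -0.43). Hnrnpk, a poly(C)-binding protein gene, read 449, 392.4 and 420 CPM in GV_C and 42.0, 41.2 and 37.8 CPM with cPDS. The replicates of each group lay close together, and it fell by 3.38 (SE 0.08; edgeR adjusted p = 5.10e-13). U2af1, which recognises the 3′ splice site, fell by 3.46 (SE 0.13). By symbol, 13 of 20 Hnrnp genes were lower and 1 higher, and 8 of 11 Srsf genes were lower and 1, Srsf2, higher. R-loop processing genes had 7 higher and 10 lower of 29 (median 0.08), with Thoc3, an mRNA export subunit gene, at -2.90 ± 0.13 and Top3b, a topoisomerase that acts on RNA, at -2.43 ± 0.11.

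The transcription machinery did not move as 1 block. P-TEFb is the kinase that releases paused RNA polymerase II, and the 7SK particle holds it inactive. Cdk9, its kinase, read 1.94, 2.87 and 2.68 CPM in GV_C and 3.11, 2.03 and 2.33 CPM with cPDS, overlapping groups with a log2 fold change of 0.00 ± 0.22. Its cyclin gene Ccnt1 stood at 0.10 ± 0.11 and was not called. Mepce, which caps 7SK, fell from 42.2 to 8.49 CPM (-2.31 ± 0.10) and Th1l, a subunit gene of the pausing factor NELF, from 29.7 to 2.61 CPM (-3.58 ± 0.23). In all, 12 were higher and 16 lower of 42. RNA polymerase II, Mediator and general factors had 33 higher and 21 lower of 81 (median 0.13), with Med14 at the top and Med9 (-2.15) at the bottom. Genes of ribosomal RNA production had 12 higher and 24 lower of 53 (median -0.20).

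Translation genes moved in both directions. Of 82 tested genes of cytosolic ribosomal proteins, 38 were higher and 13 lower (median 0.19), and the rises were small, up to 0.56 for Rpsa. Rpl19 was the exception, at 214, 224 and 231 CPM in GV_C and 64.8, 59.2 and 54.1 CPM with cPDS (-1.91 ± 0.08), while the next lowest member, Rps9, changed by -0.67. Ribosomal protein genes have many processed copies and are uncertain one by one. Initiation factors had 13 higher and 24 lower of 44 (median -0.33), including Eif5a and Eif2b4, of the nucleotide exchange factor of eIF2, at -2.31 ± 0.11. Of the 5 Eif2b genes, 4 were lower and Eif2b1 was higher. Cytosolic tRNA synthetases had 3 higher and 13 lower of 22 (median -0.54). Kars, the lysine enzyme, fell from 77.5 ± 5.36 to 14.1 ± 3.34 CPM (-2.47 ± 0.14), and Aimp2, a scaffold of the synthetase complex, rose from 45.8 to 64.7 CPM (0.50 ± 0.07).

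The mitochondrial ribosome had 27 higher and 22 lower of 75, and nuclear genes of oxidative phosphorylation 34 higher and 26 lower of 91, with medians of 0.07 and 0.17. Their lower shares, 29.3% and 28.6%, were near the 27.4% over all tested genes, and their higher shares were 36% and 37.4% against 23.4%. Atp5g2, a proton channel subunit gene of ATP synthase, fell from 39.7 to 8.67 CPM (-2.20 ± 0.11), while Atp5d, of the same enzyme, rose from 17.3 to 30.9 CPM (0.84 ± 0.09). Complex I genes of the Nduf series had 12 higher and 12 lower of 37. Of 13 mitochondrial genome genes, 2 were higher, mt-Co2 and mt-Co3 (0.82 and 0.81), and the number ran from 0 to 6 over the alternative settings. Mitochondrial chromosome counts were 0.167% to 0.289% of GV_C libraries and 0.246% to 0.369% of cPDS libraries.

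Exit from prophase arrest depends on cyclin B, the CDK1 kinase and its regulators. The meiotic arrest and resumption list had 20 higher and 16 lower of 50 (median 0.14). Ccnb1, cyclin B1, read 1939, 1646 and 1749 CPM in GV_C and 2638, 3018 and 3024 CPM with cPDS, and rose by 0.70 ± 0.07. Mos, the kinase of the meiotic MAP kinase pathway, rose by 0.28 ± 0.06 and Ppp2ca, a catalytic subunit of phosphatase 2A, by 0.81 ± 0.09. Wee2, the oocyte kinase that restrains CDK1, fell by 0.52 (SE 0.06), Cdc20, an activator of the anaphase-promoting complex, by 0.66 (SE 0.08) and Ensa, an inhibitor of phosphatase 2A, by 1.65 (SE 0.09).

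Spindle and checkpoint genes had 14 higher and 26 lower of 46 (median -0.21). Mis12, a kinetochore scaffold gene, read 88.5, 83.1 and 81.8 CPM in GV_C and 16.1, 19.1 and 19.4 CPM with cPDS (-2.21 ± 0.09). Cdca8, the borealin subunit of the chromosomal passenger complex, fell by 1.92 (SE 0.10) and its kinase gene Aurkb by 1.37 (SE 0.12), while the kinetochore gene Cenpi rose by 0.75 ± 0.09. Cohesin and recombination genes had 10 higher and 10 lower of 31.

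DNA damage response and repair genes had 13 higher (21%) and 26 lower (41.9%) of 62 (median -0.09), and the higher share was near the 23.4% over all genes. Ung, the glycosylase that removes uracil, read 58.2, 51.5 and 63.0 CPM in GV_C and 4.98, 5.01 and 3.35 CPM with cPDS, and fell by 3.73 (SE 0.14). Rad51c, a recombination mediator gene, fell by 1.66 (SE 0.09). The p53 list had 7 higher and 14 lower of 32 (median -0.28). Trp53 rose by 0.51 ± 0.09. Bax, the pore-forming apoptosis gene that p53 activates, read 15.8, 21.7 and 19.5 CPM in GV_C and 0.842, 1.18 and 0.750 CPM with cPDS, a 21.4-fold fall (-4.42 ± 0.19).

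Genes of heat shock and of endoplasmic reticulum stress were called lower in 45.9% and 50%, against 27.4% over all tested genes. They were called higher in 10.8% and 12.5%, against 23.4%. Heat shock chaperones and factors had 4 higher and 17 lower of 37 (median -0.20). Dnajb1, a co-chaperone of HSP70, read 427, 397 and 453 CPM in GV_C and 34.8, 40.4 and 34.4 CPM with cPDS, and fell by 3.55 (SE 0.08). Hspa8, the constitutive HSP70, stood at 0.06 ± 0.08 and was not called, and Hsp90aa1 rose by 0.16 ± 0.05. Genes of endoplasmic reticulum (ER) stress and the integrated stress response had 5 higher and 20 lower of 40 (median -0.43). Hspa5, the ER chaperone BiP, fell from 357 to 81.1 CPM (-2.14 ± 0.10) and Pdia6, a disulfide isomerase gene, from 281 to 29.2 CPM (-3.27 ± 0.08). Ppp1r15a, which ends the integrated stress response, fell by 2.38 (SE 0.15), whereas Atf4, its central factor, rose by 0.52 ± 0.08.

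Herpud1, an ER-associated degradation gene, made the largest rise of any list. It read 1.08, 1.02 and 0.939 CPM in GV_C and 7.73, 16.8 and 7.69 CPM with cPDS, so cPDS replicate 2 was highest and the groups were far apart (3.38 ± 0.28; edgeR adjusted p = 8.24e-08). Oxidative stress genes had 9 higher and 10 lower of 29, interferon response genes 1 higher and 7 lower of 18, and immediate early genes 2 higher and 3 lower of 16. Genes of zygotic genome activation had 1 higher and 1 lower of 10.

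Of 48 tested proteasome genes, 16 were higher and 19 lower (median -0.18). A split by symbol, made after the values were seen, gave 7 of 8 alpha subunit genes of the core (Psma) higher and 0 lower, with edgeR's quasi-likelihood test. Of 10 beta subunit genes of the core (Psmb), 2 were higher and 4 lower, with Psmb5, which carries a peptidase site, at -1.65 ± 0.10. Of 6 ATPase genes of the regulatory particle (Psmc) 4 were lower and 1 higher, and of 14 other genes of that particle (Psmd) 8 were lower and 4 higher. Psma1 rose from 270 to 394 CPM (0.54 ± 0.06), while Psmc5 fell from 314 to 51.8 CPM (-2.60 ± 0.12) and Psmd2 from 180 to 28.2 CPM (-2.68 ± 0.10). Ubiquitin ligase and deubiquitinase genes had 18 higher and 10 lower of 36 (median 0.20).

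The cytoskeleton list had 8 higher and 22 lower of 43 (median -0.32). Of 9 tested Arp2/3 genes, 6 were lower and 1, Actr2, was higher at 0.55. Beside Arpc3, Arpc4 fell from 15.7 to 1.90 CPM (-3.03 ± 0.15), while Rac1, a GTPase upstream of the complex, read 92.6, 91.4 and 92.9 CPM in GV_C and 198, 196 and 159 CPM with cPDS (1.00 ± 0.08). Glycolysis and pyruvate genes had 2 higher and 13 lower of 27 (median -0.45), led by Pkm2, pyruvate kinase, which fell from 222 to 20.3 CPM (-3.45 ± 0.12). Ldhb, the abundant lactate dehydrogenase of the oocyte, was not called at -0.08 ± 0.05, and Gapdh, with many processed copies, stood at 0.34 ± 0.29. Lysosome and autophagy genes had 10 higher and 15 lower of 33, with the cholesterol carrier gene Npc2 at -3.31 ± 0.08, and sterol and lipid synthesis genes 9 higher and 7 lower of 29, with Fdps, farnesyl diphosphate synthase, at -3.63 ± 0.15.

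**Figure D4:**
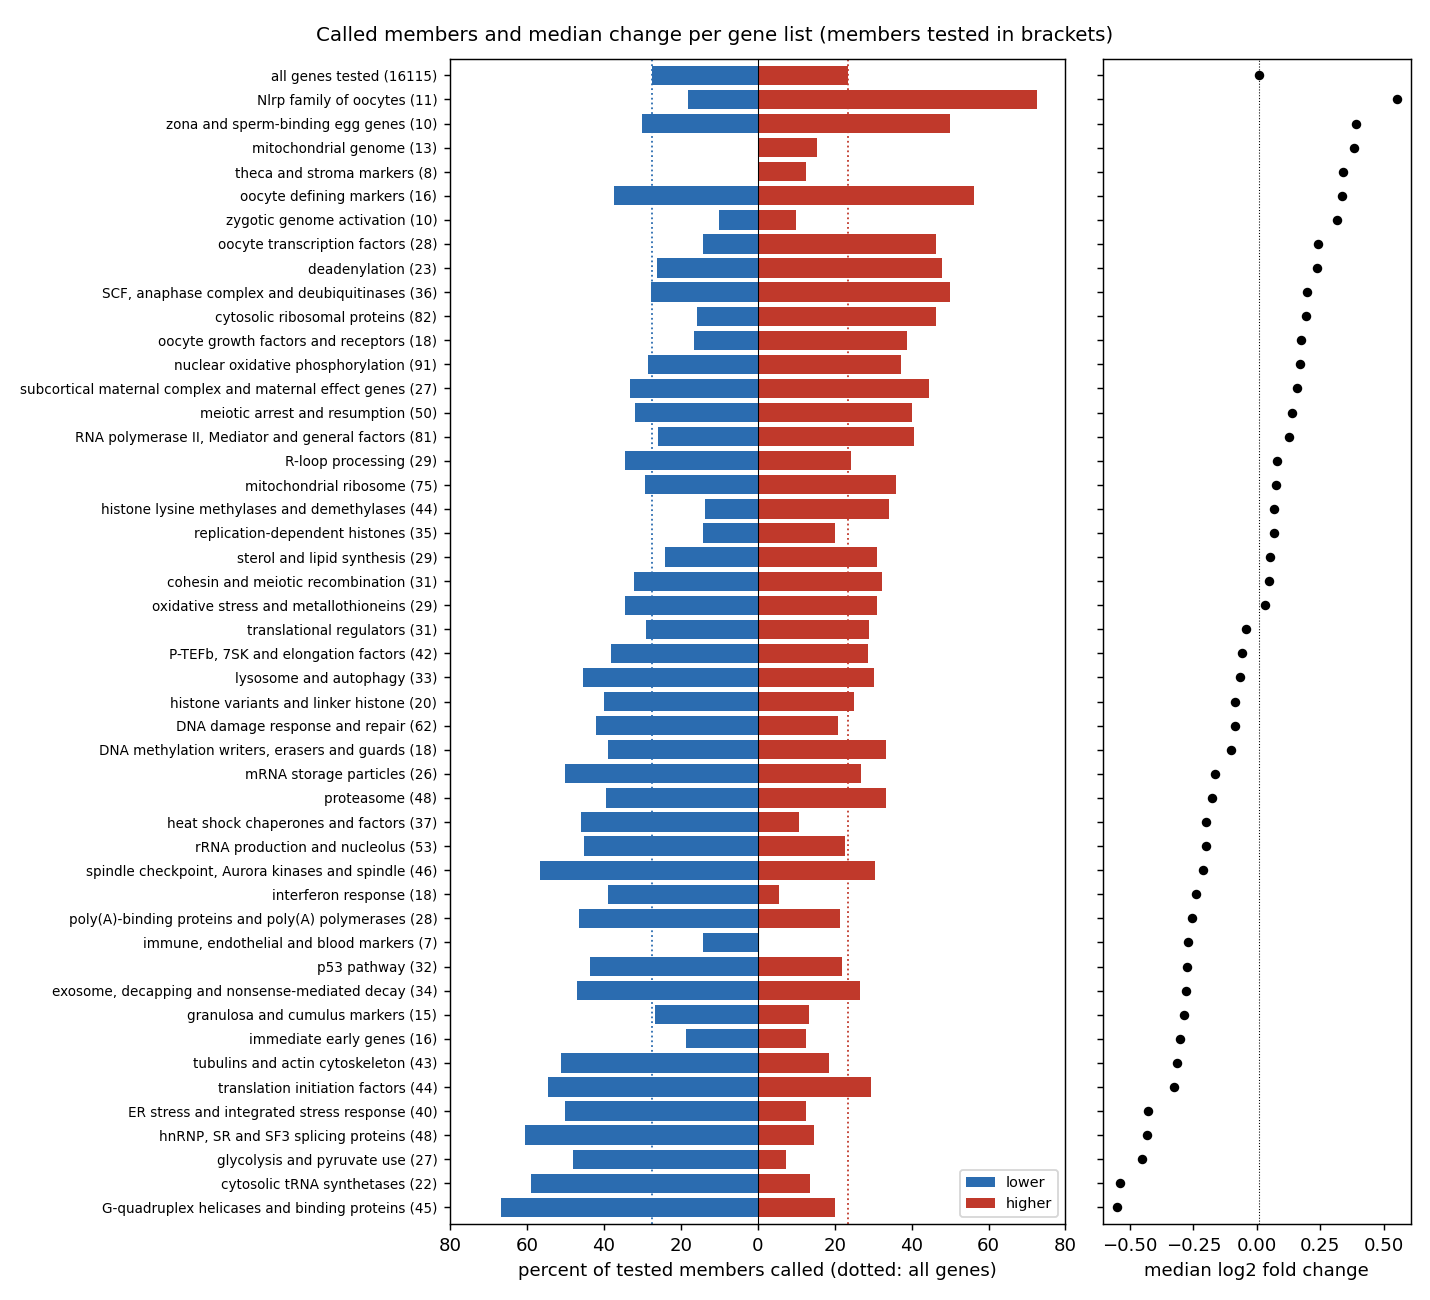
Percent of tested members called lower (blue, to the left) and higher (red, to the right) and the median log2 fold change for each gene list, with the number tested in brackets and all genes as dotted lines. Lists of G-quadruplex binding proteins (median -0.55), tRNA synthetases (-0.54), glycolysis and splicing proteins lie lowest in these values, and the Nlrp family (0.55) and the zona list highest.

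Markers of the cells around the oocyte were counted beside these groups. Granulosa and cumulus markers had 2 higher and 4 lower of 15 tested, theca and stroma markers 1 higher of 8, and immune, endothelial and blood markers 0 higher and 1 lower of 7 by edgeR. The 1 was Pecam1, an adhesion gene of endothelial cells, which read 57.4, 52.8 and 56.0 CPM in GV_C and 13.0, 14.5 and 13.3 CPM with cPDS. The blood and monocyte genes Hba-a1, Hbb-b1 and Cd14 had no count in the 6 libraries. Other members of that list were counted, such as Tek (3378 counts over the 6 libraries), Cd68 (641) and Kdr (446).

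The change with cPDS was set against the change in growing oocytes labelled Dhx36 sko, where Dhx36 itself had a log2 fold change of -2.15. The 2 comparisons share no library, but they differ in stage, genotype and experiment, which cannot be told apart here. In 1 edgeR model of 12 libraries, the 2 changes differed in 8253 of 16133 tested genes (51.2%), 3901 above 0, where the cPDS change was the higher, and 4352 below. With library size alone the number was 8262, but 2350 were above and 5912 below, and the median difference over all genes moved from -0.08 to -0.44. Growing sko oocytes differed from their controls in 56.9% of genes in this model.

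Many genes that were lower with cPDS were not lower with sko, but the share that was lower exceeded that of all tested genes. In that model, 1650 genes were lower in both, which is 43.9% of those lower with cPDS and 31.9% of those lower with sko, where 32.1% of all tested genes were lower with sko and 23.3% lower with cPDS. With library size alone these shares were 25.7% and 32.5%, with 18.9% of all genes lower with sko. Genes higher in both numbered 786, or 28.7% of those higher with cPDS, against 24.8% of all genes, and with library size alone 45.4% against 35.6%. Opposite calls were made for 702 genes lower with cPDS and higher with sko, 18.7% of those lower with cPDS, against 24.8% of all genes. Another 1049 genes were higher with cPDS and lower with sko. That is 38.3% of those higher with cPDS, against 32.1% of all genes lower with sko.

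Single genes showed each pattern. Pabpn1l was lower in both, at -4.33 with cPDS and -1.75 ± 0.16 with sko, as were Nudc (-1.50 ± 0.16 with sko) and H1foo (-0.79 ± 0.10 with sko), and each of these differences was called. Of the 12 largest decreases with cPDS, 7 were called lower with sko, 0 higher and 5 not called by edgeR, and the difference was called in 12. Hnrnpk, Tubb2c and Hnrnpa1 stood at 0.16 ± 0.12, -0.12 ± 0.11 and 0.02 ± 0.11 with sko and were not called there. Arpc4 and Fdps were lower with cPDS and higher with sko (1.23 ± 0.15 and 0.87 ± 0.16). Of the 12 largest increases, 4 were higher with sko, 4 lower and 4 not called, and the difference was called in 10. Over all tested genes the difference was called in 51.2%. Both sets were picked for the size of their cPDS change, which is part of the difference. Their counts of called differences were therefore largely set by the choice, and nothing is concluded from them.

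Gene lists differed between the comparisons too, and the counts moved with the scaling. Over all tested genes the difference was above 0 in 24.2% and below in 27%. With library size alone it was above 0 in 2350 and below in 5912 of 16133 genes. Of 82 ribosomal protein genes, 38 were higher and 13 lower with cPDS. With sko, 5 were higher and 52 lower, or 12 and 31 with library size alone. Their difference was called above 0 in 51 and below in 6 (28 and 7 with library size alone). For maternal effect genes the difference was above 0 in 17 and below in 5 of 27 (10 and 5 with library size alone). For G-quadruplex helicases and binding proteins it was above in 10 and below in 25 of 45 (6 and 30 with library size alone), and for splicing proteins above in 9 and below in 25 of 48 (6 and 29). Zp3 rose with cPDS and was lower with sko (-0.72 ± 0.10), and Ddx6 and Ddx4, a germ cell helicase gene, were lower with cPDS and higher with sko (2.00 ± 0.14 and 1.67 ± 0.14). Ccnt1 and Cdk9, not called with cPDS, were higher with sko (2.00 ± 0.13 and 2.21 ± 0.37), and both differences were called. Cdk9 was very low in growing controls, at 0.588 ± 0.427 CPM (SD), against 2.78 ± 0.480 CPM (SD) with sko. The size of its change is therefore uncertain.

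**Figure D5:**
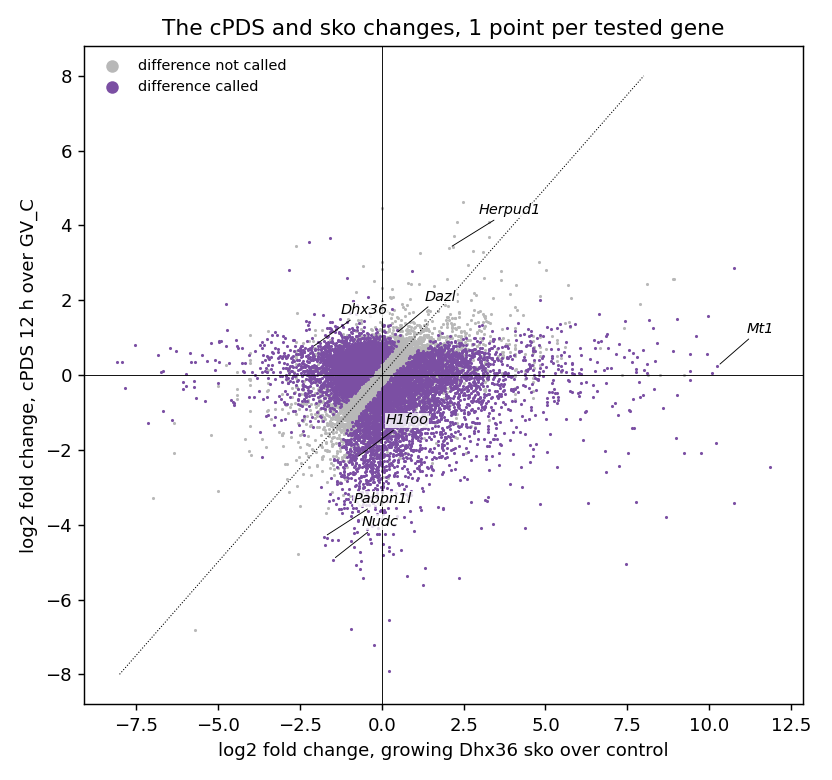
Log2 fold change with cPDS in GV oocytes against log2 fold change with Dhx36 sko in growing oocytes, 1 point per tested gene, purple where the difference was called (8253) and grey where it was not, with equal changes on the dotted line. Points spread along both axes and not only along the line, with Nudc and Pabpn1l low on both and Dhx36 higher with cPDS and lower with sko.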

How the data were processed

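The authors deposited raw read counts per gene, with summed exon lengths. The table's columns have the featureCounts layout. Tools listed in the submitters' processing notes are featureCounts 2.0.1, STAR 2.5.2b, HISAT2 2.1.0, fastp 0.21.0 and cutadapt 1.15, with build mm9 and without roles or order. The sources used here do not give the strand setting or how multi-mapping reads were treated, so overlapping, antisense and multicopy genes are uncertain. In the table, 8 other count columns of per-sample values were not used.

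The GV comparison ran on the counts of 6 libraries in edgeR 4.0.16 (R 4.3.3): filterByExpr (minimum count 10), TMM factors, quasi-likelihood test, Benjamini-Hochberg adjustment over all genes tested, threshold 0.05. SE was taken as |log2 fold change| divided by the root of F. CPM are on TMM-scaled library sizes. The difference from growing sko oocytes was tested in 1 model of 12 libraries. Percentages of counts are on raw totals. Depth ran from 26509060 to 65444652 counts. The SE comes from the quasi-likelihood fit and includes the spread between libraries. Floors for genes without a count cover counting error only. Tests were checked on simulated counts: recovery was 63% for 2-fold and 92% for 4-fold changes, with 18 of 173 calls false, for the GV comparison over 15862 genes. For the difference, 44% and 73% were recovered with 5 of 122 calls false. In the GV comparison the false share was above the threshold of 0.05. The simulation changed 100 genes at each fold, as many up as down. In the data 50.8% of genes were called and large changes were mostly lower, so these rates may not carry over.

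Named genes were the 12 largest increases and 12 largest decreases among called genes whose log2 CPM averaged 4 or more, with groups that did not overlap and an informative symbol, the 8 most abundant in GV_C, per list, the 3 called genes of smallest p, 14 set genes, and further list members; not all are printed, and some further members were chosen after their values were seen. Comparison, lists and genes were chosen with earlier results of these data known; lists are described by counts and medians, with no set test. Of the 14 set genes, Hexim1 was not among the genes tested. RefSeq symbols or single synonyms matched 15325 of 16115 tested genes. Alternatives were DESeq2 1.42.0, library size alone, RLE factors, other filters, thinning, the replicate block and leaving out each library. Features on several chromosomes (99) were kept. Date-like entries in the symbol column (25) were left as deposited and are not named. Some items are not reported here.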

Additional observations from a re-analysis of the deposited data

How the results depend on the processing

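The number of genes called ran from 7012 to 8066 when each library was left out in turn and from 7559 to 8275 over the other alternatives, against 8191. The number changed at least 2-fold ran from 2154 to 2451 and from 1855 to 2458, against 2305. Genes at least 2-fold higher numbered 136 where 1 CPM in 3 libraries was required, against 258. No gene called in both the reported fit and an alternative changed direction (0 in each of 13), and 6114 genes were called in the same direction in every one. The median log2 fold change over all genes stayed within -0.03 to 0.02. With the replicate block, 7559 genes were called and 2230 changed at least 2-fold. Same-numbered libraries did not deviate together (r = -0.059, -0.033 and -0.037). These values show no pairing by number, but with 3 libraries per group they cannot exclude one. Of 165 named genes 159 were called, and 154 were called in every alternative; Eif1a, Spin1, Dcn, mt-Co2 and mt-Co3 lost the call in some, and Rdx gained it in some. Among list counts of at least 5, those that moved by over 1.5 times were ribosomal proteins lower (8 to 14), DNA methylation genes higher (3 to 6), G-quadruplex binding proteins higher (5 to 9), and replication-dependent histones higher (3 to 7) and lower (2 to 6). Counts under 5 moved as well, such as mitochondrial genome genes higher (0 to 6) and immediate early genes higher (1 to 4). The median of the tRNA synthetases ran from -0.69 to -0.44 and that of the G-quadruplex list from -0.60 to -0.46, so their order turned. The difference from sko was called in 7541 to 8267 genes without each library and in 8262 to 8591 otherwise. The scalings of the overlap and lists in that comparison, and the marker shares without named genes, were chosen after seeing the data. Depth limits low genes most: at least 10 counts were seen for 14433 genes in the shallowest library and 16385 in the deepest.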

Other observations

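Gene families by symbol, chosen after their values were seen, are given against 23.4% higher and 27.4% lower over all tested genes. Among 79 symbol stems with at least 15 tested members, Ddx genes, of DEAD-box RNA helicases, had 4 higher (11.4%) and 22 lower (62.9%) of 35 (median log2 fold change -0.53). Stk genes, of serine/threonine kinases, had 2 higher and 12 lower (60%) of 20 (median -0.68), and Rab genes, of membrane traffic GTPases, 9 higher (15%) and 22 lower (36.7%) of 60 (median -0.31). Fbxw genes, of F-box proteins, had 14 higher (66.7%) and 5 lower of 21 (median 0.41), and Zfp genes, of zinc finger proteins, 108 higher (34.7%) and 70 lower (22.5%) of 311 (median 0.17).

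Large rises were found mostly at low abundance. Osbpl7, of an oxysterol-binding protein family, rose from 2.24 to 15.5 CPM (log2 fold change 2.79 ± 0.19, SE) by edgeR's quasi-likelihood test. Btg3, an antiproliferative gene of the family of Btg4, had a log2 fold change of 1.74. Fam176b had 24, 26 and 41 counts in the GV_C libraries and 0 in each cPDS library, and was at least 21.5-fold lower taking 3 counts summed over the 3 cPDS libraries as the floor. B3galt4, a galactosyltransferase gene, had 24, 20 and 24 counts and 0 with cPDS, and was at least 15.9-fold lower.

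Chromosomes differed in their share of calls. On chromosome 8, 17.2% of tested genes were higher and 34.2% lower, against 23.4% and 27.4% over all tested genes. On chromosome 13 these shares were 29.2% and 21.4%, and on the X chromosome 27.7% and 18.8%. These chromosomes were picked from near the ends of the range. Others lay near the overall shares, such as chromosome 2 (22.9% and 25.4%) and chromosome 9 (23.4% and 28%). Genes are not replicates, so the shares carry no test.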
